A study of Saccharomyces cerevisiae with 68 samples.

Results

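The seripauperin (PAU), DAN and TIR genes of the budding yeast Saccharomyces cerevisiae were taken as all reading frames of the value table whose R64 symbol is PAU, DAN or TIR followed by digits only. The rule gave 30 genes of the 6297 rows: 24 PAU genes, 2 DAN genes (DAN1 and DAN4) and 4 TIR genes (TIR1 to TIR4). PAU23 and PAU24, which are also called DAN2 and DAN3, were counted with the PAU genes. RNA of 5 strains was hybridised to 68 arrays with 2 colours, which compare a test and a reference RNA on the same spots. The strains were DBY8268, a laboratory strain of the S288c background from which the reference genome comes, and K9, M22, RM11-1a and YPS163, for which the labels give no genotype. Log-phase cells of each strain, growing in YPD (a rich medium) at 25C, were brought to 37C with prewarmed medium. Each strain was sampled at 5, 15, 30, 45, 60 and 120 min in 2 series against its own RNA at 25C, which gave 60 arrays and n = 2 for each strain and time. On 8 more arrays K9, M22, RM11-1a and YPS163 were each hybridised on 2 arrays against DBY8268 at 25C. Dyes were swapped between the 2 series or arrays of a strain, except in the K9 time courses, and 3 time-course arrays of M22 and RM11-1a name another 25C reference than the rest. A value is a log2 ratio of test over reference, so that 0 means no difference, and an array shows ratios only, not levels.

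PAU genes encode small secreted proteins that are poor in serine and resemble the start of the serine-rich TIR proteins. TIR and DAN proteins are mannoproteins anchored in the cell wall. In S. cerevisiae the family is known for transcription under low oxygen, where the sterol regulator Upc2 activates it, and for its repression in air by Mot3 and, for several members, Rox1. TIR1 and TIR2 are also known as genes induced by cold shock. The PAU genes are near copies of each other, so a spot named for one of them may hybridise with transcripts of several, and strains may carry different copies. How much of each PAU value comes from other copies was not tested. In the gene order of R64, 20 of the 24 PAU genes lay within 20 genes of a chromosome end, with a median of 2 genes beyond them. Both DAN genes, which are neighbours, also lay there with 10 and 11 genes beyond them. None of the TIR genes did, with at least 60 genes beyond each, and TIR2 and TIR4 are neighbours.

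No member had a value on all 60 time-course arrays, while 15.47% of all rows of the table did. The 30 genes had a median of 54 values on the 60 time-course arrays, against 57 over all rows of the table. Values were scarce for DAN1 (13), PAU14 (16), PAU19 (17), PAU22 (18), TIR4 (21) and DAN4 (35). PAU14 and PAU19 had no value on any array of DBY8268 or M22, and PAU22 had none in YPS163. At 25C no array gave a value for DAN1, PAU20, TIR2 or TIR4, and PAU22 had 1 value. A gene was tested in the time courses if it had a value in all 30 groups of strain and time. This held for 17 members: PAU2, PAU4, PAU5, PAU6, PAU8, PAU9, PAU11, PAU12, PAU13, PAU17, PAU18, PAU21, PAU23, PAU24, TIR1, TIR2 and TIR3. PAU1, PAU3, PAU7, PAU10, PAU15, PAU16 and PAU20 had between 44 and 54 values and lacked at least 1 group. The number of arrays limits the precision: among 602 pairs of replicate values of members the median absolute difference was 0.375 and the 90th percentile 1.06. Array medians over all genes lay between -0.17 and 0.28 in the time courses. HSP104, a heat-induced chaperone, was above 0 on all 58 time-course arrays with a value, and HSP12, a small heat shock protein, on 53 of 54. The widest replicate pair was that of PAU20 in K9 at 15 min, with -2.63 in series 1 and 1.03 in series 2. Similar gaps occurred for PAU5 in M22 at 30 min (-0.49 and 3.05) and for PAU4 in YPS163 at 45 min (-2.85 and 0.64).

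The first comparison asked which members changed on average over the 5 strains. Of the 14 tested PAU genes 9 rose and 2 fell at 5 min, 7 rose and 2 fell at 15 min, and 9, 3, 5 and 7 rose and 0 fell at the 4 later times. TIR1 and TIR2 rose at 15, 30 and 120 min, and TIR3 fell at each of the 6 times. At 5 min 9 of the 17 tested members rose and 3 fell (limma with Benjamini-Hochberg adjustment, threshold 0.05), where 67.3% of all 4360 tested genes were called, 31.1% as higher and 36.2% as lower. PAU24 (0.83, SE 0.13) and PAU17 (0.83, SE 0.10) rose most, and the risers were all PAU genes. At 15 min 9 members rose and 3 fell against a background of 78.1%, of which 38.1% rose and 39.9% fell. At 30 min 11 rose and 1 fell (background 67.3%, with 40.6% up and 26.8% down). At 45 min 3 rose and 1 fell (54%, with 33.7% up and 20.4% down). At 60 min 5 rose and 1 fell (46.9%, with 24.3% up and 22.6% down). At 120 min 9 rose and 1 fell (51.6%, with 30.7% up and 20.9% down). Counted in either direction the share of members called was close to that of all genes or below it, and more members were called higher than lower at each of the 6 times. The median over the 17 members was 0.51, 0.35, 0.37, 0.16, 0.15 and 0.30 at the 6 times in order, beside -0.04, -0.01, 0.11, 0.09, 0.02 and 0.05 over all tested genes. Centring each array on its median lowered the counts to 2 at 45 min, 3 at 60 min and 6 at 120 min. Without the array labelled as a technical repeat, YPS163 at 60 min in series 2, the count at 60 min went from 6 to 1.

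**Figure D1:**
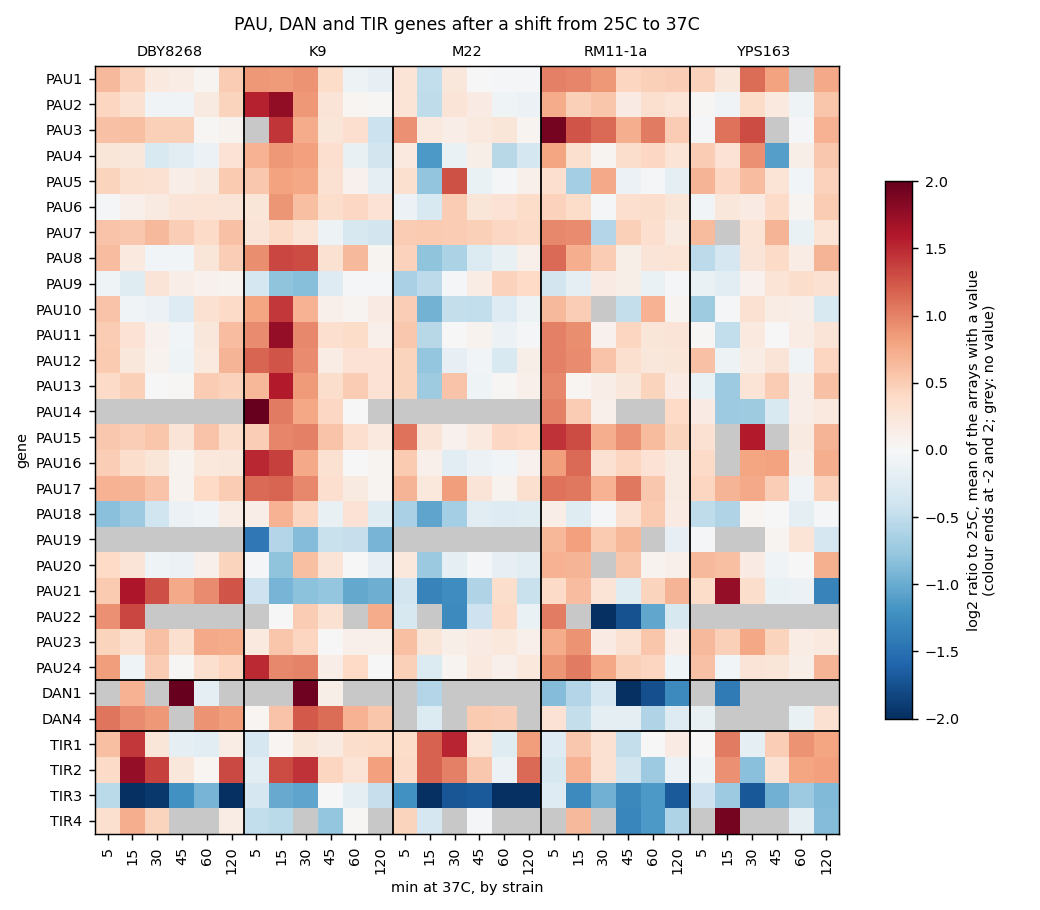
Mean log2 ratio to 25C of the 30 genes (rows) at 6 times in each of 5 strains (columns), where grey cells have no value and colours end at -2 and 2. TIR3 is blue in nearly all columns, most PAU genes are red in K9 at 5 to 30 min and pale or blue in M22 at 15 min, and PAU14 and PAU19 are empty in DBY8268 and M22.

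TIR2 showed the highest mean at 15 min, at 1.17 (SE 0.19, adjusted p = 1.40e-06, limma). Its values at 15 min were 2.08 and 1.43 in DBY8268, 1.08 and 1.53 in K9, 1.23 and 1.12 in M22, 1.40 and -0.02 in RM11-1a, and 0.91 on the 1 YPS163 array with a value. Of these 9 values 8 lay at 0.91 or higher, and the exception was series 2 of RM11-1a. Its mean was then 0.64, 0.19, 0.02 and 0.78 at 30, 45, 60 and 120 min, of which the first and the last passed the test. Its strains differed at 30 min (adjusted p = 0.00698), where series 1 of YPS163 gave -2.10 and series 2 gave 0.44.

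TIR1, the serine-rich cell wall mannoprotein that is induced by cold, averaged 0.83 at 15 min (SE 0.16, adjusted p = 2.36e-05). It measured 1.76 and 1.07 in DBY8268, 1.05 and 1.31 in M22 and 1.26 and 0.81 in YPS163. In RM11-1a the series gave 1.07 and 0.01, and in K9 they gave -0.08 and 0.16. The K9 values lay below those of DBY8268, M22 and YPS163, but the test over strains did not pass (adjusted p = 0.159). In DBY8268 series 1 of TIR1 was above series 2 at each of the 5 times where both had a value. TIR1 fell from 15 to 120 min by 0.38 (SE 0.14, adjusted p = 0.0388). Across the 55 arrays with both values TIR1 and TIR2 had a Pearson correlation of 0.682, in which the points share arrays and 25C references.

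TIR3, another mannoprotein of the family, was the lowest member, with means of -0.525, -1.70, -1.44, -0.97, -1.05 and -1.61 at 5, 15, 30, 45, 60 and 120 min. All 6 passed the test, and 56 of its 59 values were below 0. At 15 min it measured -3.09 and -2.38 in DBY8268 and -2.79 and -2.97 in M22. It measured -1.05 and -1.51 in RM11-1a, -0.80 and -1.22 in K9, and -0.92 and -0.53 in YPS163. The values of DBY8268 and M22 did not overlap those of the other 3 strains. TIR3 differed among strains at 15 min (adjusted p = 2.82e-04), 45 min (0.047), 60 min (0.00315) and 120 min (4.51e-04). At 120 min the values were -2.35 and -2.54 in DBY8268, -2.82 and -2.58 in M22, -1.94 and -1.43 in RM11-1a, -1.35 and -0.42 in YPS163, and -0.52 and -0.41 in K9. The call at 45 min was lost under most of the alternative settings, and it did not pass without the technical repeat, an array of another time. In YPS163 at 30 min the series gave -3.06 and -0.33, on the same array pair on which TIR2 differed.

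TIR4 had 21 values, of which 8 were above 0 and 13 below. At 15 min it gave 0.73 in DBY8268 and, in the other strains, 0.65 (RM11-1a), 1.91 (YPS163), -0.34 (M22), and -0.58 and -0.51 (K9). With 1 array in 4 of these 5 strains the pattern has no replicate check outside K9.

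**Figure D2:**
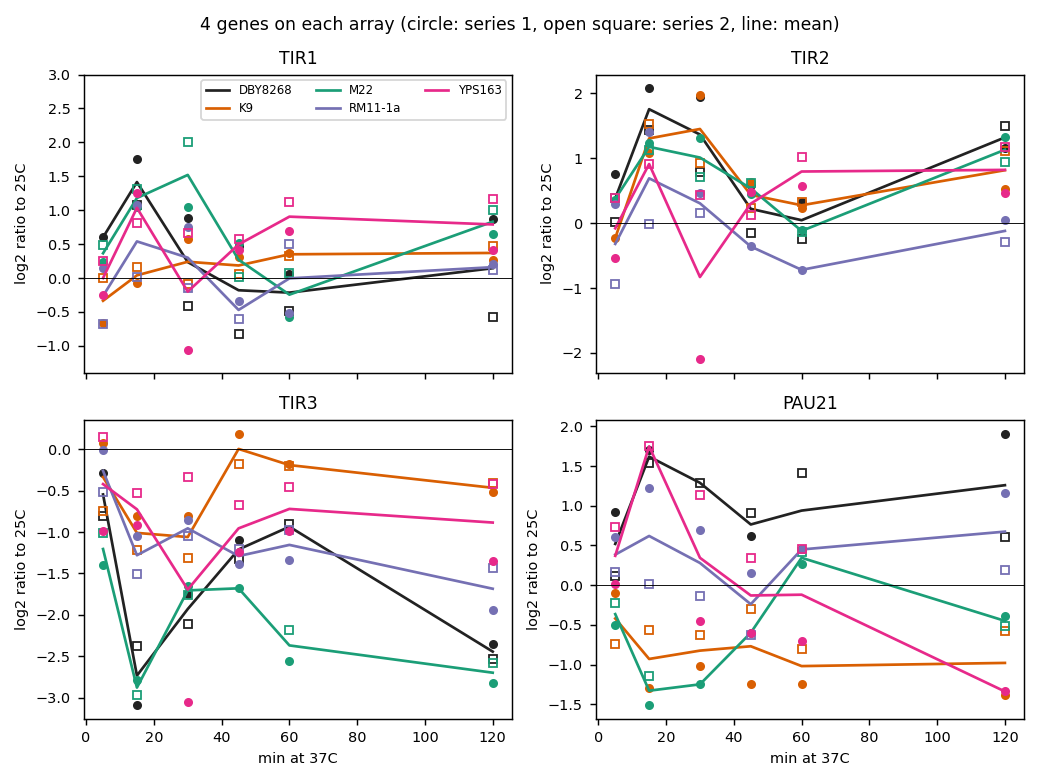
Log2 ratio to 25C against min at 37C for TIR1, TIR2, TIR3 and PAU21, with filled circles for series 1, open squares for series 2 and lines for the mean of each strain. TIR3 lies below 0 on 56 of 59 arrays and is lowest in DBY8268 and M22, and PAU21 lies above 0 in DBY8268 and below 0 in K9 at all times.

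The DAN genes, named for their delayed induction without oxygen, could not be tested over all groups. DAN4 was above 0 on 24 of 35 arrays, between -0.96 and 1.5. In DBY8268 it measured 1.09 and 0.79 at 15 min and lay between 0.64 and 1.5 on all 9 arrays with a value. In RM11-1a it measured -0.96 and 0.00 at 15 min, and its 11 values reached 0.63. In K9 it measured 0.74 and 0.40, and in M22 -0.28 on 1 array. When genes with a value in every group of a single comparison were kept, DAN4 rose at 15 min in DBY8268 (0.94, SE 0.25, adjusted p = 0.0059) and in K9 (0.73, SE 0.26, adjusted p = 0.0273). DAN1 had 13 values from -2.23 to 2.96. Of these 6 came from series 1 of RM11-1a, where DAN1 was -0.87, -0.59, -0.34, -2.23, -1.76 and -1.27 at 5, 15, 30, 45, 60 and 120 min. DAN1 was measured on both arrays of no strain and time.

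The second comparison asked whether the heat response differed between strains. At 15 min every K9 value lay above every M22 value in 11 of the 14 tested PAU genes, and PAU9, PAU21 and PAU23 were the exceptions. Each strain had at most 2 values per gene there, and this pair of strains was not a planned comparison. The share of all genes with such a gap was not counted, so the count has no background to be read against. The F test over the 5 strains called 10 of 17 members at 15 min, where 25.4% of all genes were called: PAU2, PAU4, PAU8, PAU11, PAU12, PAU13, PAU18, PAU21, PAU24 and TIR3. It called 1 member at 5 min (PAU2, background 8.44%), 5 at 30 min (PAU2, PAU8, PAU12, PAU21 and TIR2, background 36.9%), 1 at 45 min (TIR3, 22%), 1 at 60 min (TIR3, 24%) and 2 at 120 min (TIR3 and PAU21, 17.5%). Of these times only 15 min had a share of members above that of all genes. PAU spots may hybridise with the same transcripts, so PAU genes called together are not independent counts. This limit holds for every count of PAU genes set beside a share of all genes. The array codes in the labels start with yg7, yg8 or yg9, which the labels do not explain, and these prefixes were not balanced over strains. With the prefix as a covariate 7 of 16 members were called at 15 min. The shares of all genes given here and below come from the fit without the prefix, and those of the prefix fit were not counted.

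PAU2 had the smallest p at 15 min (adjusted p = 5.02e-06). It measured 1.86 and 1.68 in K9, -0.53 and -0.49 in M22 and 0.28 and 0.32 in DBY8268. The single arrays with a value gave 0.48 in RM11-1a and -0.07 in YPS163. The 2 K9 values lay above all others and the 2 M22 values below all others. PAU11 (adjusted p = 2.20e-05) gave 1.90 and 1.61 in K9, -0.59 and -0.51 in M22, 0.82 and 1.05 in RM11-1a, 0.29 in DBY8268 and -0.49 in YPS163. PAU13 (adjusted p = 7.92e-05) gave 1.44 and 1.72 in K9, -0.71 in M22, -0.01 and 0.09 in RM11-1a, 0.26 and 0.70 in DBY8268 and -0.72 in YPS163. For both genes K9 did not overlap any other strain, and M22 and YPS163 lay side by side.

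In K9 alone 11 of 17 members rose at 15 min and 3 fell, where 58.4% of all genes were called, 26.9% up and 31.5% down. The risers were 10 PAU genes and TIR2, led by PAU2 (1.89, SE 0.19), PAU11 (1.89, SE 0.23) and PAU13 (1.82, SE 0.24), and PAU9, PAU21 and TIR3 fell. Both K9 series had the test RNA in the same channel, so the K9 estimates here and below are shifted by the fitted dye term. For PAU2 and PAU13 the estimate lay above both K9 values. In M22 2 rose and 9 fell (background 64%, with 30.9% up and 33.1% down). The risers were TIR1 and TIR2, and the fallers were PAU2, PAU4, PAU8, PAU9, PAU11, PAU13, PAU18, PAU21 and TIR3. In RM11-1a 6 PAU genes rose and TIR3 fell (background 53.6%, with 24.4% up and 29.2% down). In DBY8268 TIR1, TIR2, PAU17 and PAU21 rose and PAU18 and TIR3 fell (52.7%, with 21.5% up and 31.2% down). In YPS163 TIR1 and PAU21 rose and PAU18 and TIR3 fell (55.1%, with 30.7% up and 24.4% down). The median of the 14 tested PAU genes was 1.07 in K9, 0.61 in RM11-1a, 0.27 in DBY8268, -0.08 in YPS163 and -0.62 in M22, while the medians of all genes lay between -0.095 and 0.0985. With the prefix as a covariate the count fell from 14 to 8 of 16 in K9, from 7 to 0 in RM11-1a and from 4 to 2 in YPS163. Standard errors were larger in that fit: in RM11-1a PAU17 was then at 1.33 (SE 0.55), PAU11 at 1.29 (SE 0.54), TIR3 at -1.43 (SE 0.74) and PAU8 at 0.43 (SE 0.72).

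Each strain at 15 min was also set against the average of the remaining strains, a comparison added with the strain pattern known. In K9 7 of 17 members differed, where 3.78% of all genes did, 1.95% higher and 1.83% lower: PAU2 (1.84, SE 0.23), PAU8, PAU11, PAU12, PAU13 (2.04, SE 0.28) and PAU18 were higher and PAU21 was lower. In M22 9 members were lower, where 14.3% of all genes differed, 7.82% higher and 6.49% lower: PAU2, PAU4, PAU8, PAU11, PAU12, PAU13, PAU18, PAU21 and TIR3. In DBY8268 PAU21 was higher and TIR3 lower (10.3%, with 1.9% higher and 8.42% lower), and in YPS163 TIR3 was higher and PAU11 lower (5.34%, with 4.77% higher and 0.573% lower). In RM11-1a limma called 0 members (3.6%, with 1.49% higher and 2.11% lower), while 3 members and 15.7% of all genes had an unadjusted p under 0.05. With the prefix as a covariate 3 members stayed past the threshold in K9, namely PAU2 (1.90, SE 0.29, adjusted p = 7.01e-04), PAU11 and PAU13, and 9 in M22. The K9 members that no longer passed were PAU8 (1.25, SE 0.47), PAU12 (1.05, SE 0.36), PAU18 (1.00, SE 0.33) and PAU21 (-1.92, SE 0.57). Leaving out 1 series reduced the count in K9 to 2 without K9 series 1 and to 1 without RM11-1a series 1, and in M22 to 2 without M22 series 1 and to 0 without M22 series 2. Fewer members could then be tested.

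**Figure D3:**
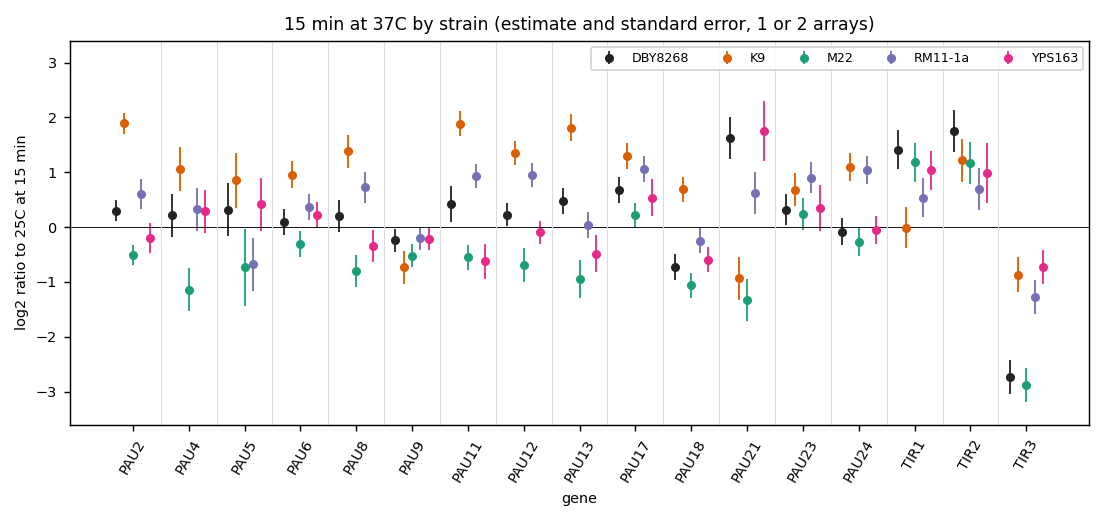
Log2 ratio to 25C at 15 min of the 17 tested genes in each strain, with points for the fitted value and bars for its standard error from 1 or 2 arrays. K9 is the highest strain for PAU2, PAU8, PAU11, PAU12 and PAU13, M22 is at or near the bottom for most PAU genes, and PAU21 separates DBY8268 and YPS163 from K9 and M22.

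PAU21 and PAU9 did not follow the other PAU genes. PAU21 at 15 min measured 1.70 and 1.54 in DBY8268, 1.75 on 1 array of YPS163, 1.23 and 0.01 in RM11-1a, -1.3 and -0.56 in K9 and -1.51 and -1.15 in M22. DBY8268 and YPS163 lay above the other strains, and K9 and M22 below them (F test, adjusted p = 2.78e-04). PAU21 was below 0 on all 12 arrays of K9 and above 0 on all 11 arrays of DBY8268 with a value. PAU9 was lower on average at 15 min (-0.38, SE 0.10, adjusted p = 0.00146). It measured -0.64 and 0.16 in DBY8268, -0.81 in K9, -0.22 and -0.82 in M22, -0.08 and -0.32 in RM11-1a, and -0.29 and -0.13 in YPS163, so the strains overlapped. PAU18 was also lower on average (-0.39, SE 0.10, adjusted p = 0.00104). It gave -0.58 and -0.87 in DBY8268, 0.79 and 0.60 in K9, -1.31 and -0.81 in M22, -0.48 and -0.02 in RM11-1a, and -0.78 and -0.41 in YPS163. K9 was the 1 strain with PAU18 above 0. Among the 14 PAU genes with values in all groups PAU17 had the highest mean at 15 min (0.76, SE 0.11, adjusted p = 2.70e-07), and it was above 0 on 56 of 59 arrays. It measured 0.57 and 0.78 in DBY8268, 1.24 and 1.09 in K9, 0.28 and 0.15 in M22, 1.13 and 0.99 in RM11-1a, and 0.68 in YPS163, so all 9 values at 15 min were above 0.

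The members measured too rarely for that test were examined strain by strain in a fit that kept every gene with values in the groups compared. PAU16 rose in K9 (1.54, SE 0.28, adjusted p = 3.80e-05) and RM11-1a (1.13, SE 0.27). PAU3 and PAU15 rose in both as well, and PAU15 and PAU16 had no value in YPS163 at 15 min. PAU3 also rose in YPS163 (1.085, SE 0.39, adjusted p = 0.0222), where series 1 gave -0.33 and the replicates differed by 2.83. Its mean over the 5 strains was 0.95 (SE 0.18, adjusted p = 2.53e-05). PAU10 rose in K9 (1.75, SE 0.45) and fell in M22 (-0.94, SE 0.31). TIR4 was fitted at 1.43 in YPS163, 0.25 in DBY8268, 0.17 in RM11-1a and -0.82 in M22 (1 array each), and -0.065 in K9. The share of all genes called in this fit is not given here. PAU1 rose in K9 and RM11-1a and fell in M22 (-0.49, SE 0.20, adjusted p = 0.0411). PAU20 at 15 min measured -0.82 and -0.65 in M22, 0.14 and 0.36 in DBY8268, 0.97 and 0.39 in RM11-1a and 0.60 on 1 array of YPS163. PAU7 lay between 0.27 and 1.39 at 15 min on all 8 arrays with a value. PAU14 had 5 values in K9, all in series 2, which went from 2.05 at 5 min to 1.04, 0.78, 0.42 and 0.00 at 15, 30, 45 and 60 min. In YPS163 it gave -0.72 at 15 min in series 1. PAU19 was below 0 on all 6 K9 arrays with a value, from -1.43 to -0.45. PAU22 gave 0.90 and 1.77 in DBY8268 at 15 min, where it rose (1.335, SE 0.196), and 0.00 in K9.

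The median over the tested PAU genes was followed on each array as a summary over time. In K9 it was 0.14 and 1.32 at 5 min, 1.03 and 1.15 at 15 min, 1.00 and 0.68 at 30 min, 0.45 and 0.04 at 45 min, 0.04 and 0.41 at 60 min, and -0.14 and 0.20 at 120 min. In M22 it was 0.13 and 0.47 at 5 min, -0.59 and -0.61 at 15 min, and between -0.115 and 0.195 from 30 min on. In RM11-1a it was 0.875 and 0.725 at 5 min, 0.66 and 0.55 at 15 min, and 0.245 and 0.23 at 120 min. K9 and RM11-1a were higher at 15 min than at 120 min on all their arrays, and M22 was below 0 at 15 min on both arrays. In DBY8268 the range was narrower, from -0.08 to 0.585. The series of YPS163 lay apart: series 2 was above series 1 at all 6 times, with medians from 0.14 to 0.915 against -0.37 to 0.125. The medians of all genes on these arrays were 0.06 to 0.28 in series 2 and -0.04 to 0.12 in series 1, and the series carried the dyes in opposite channels. The dye term passed the test in 2 of 17 members, PAU13 (-0.24, SE 0.06) and PAU17 (-0.14, SE 0.05), where 16.4% of all genes were called. The part of the dyes in the offset of YPS163 was not tested. At 30 min both arrays of K9, M22 and DBY8268 carried yg7, and they gave 1.00 and 0.68, 0.005 and 0.195, and 0.30 and -0.08. The second M22 median rests on 6 PAU genes and on an array that names another 25C reference. At 15 min both K9 arrays and series 2 of M22 carried yg8, and they gave 1.03, 1.15 and -0.61.

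**Figure D4:**
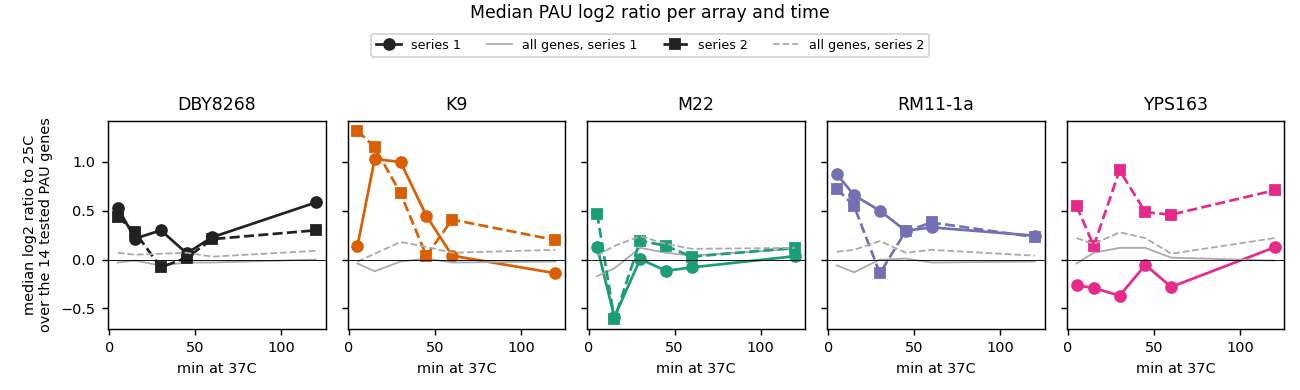
Median log2 ratio to 25C over the 14 tested PAU genes on each array against min at 37C, by strain, with circles and solid lines for series 1, squares and dashed lines for series 2 and grey lines for all genes. The K9 medians reach 1.03 and 1.15 at 15 min, the M22 medians are -0.59 and -0.61 there, and the 2 series of YPS163 do not cross.

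Differences between 15 and 120 min within each series gave the later change. Of 19 members with enough values 2 rose and 3 fell, where 63.8% of 4698 genes changed, 36.5% up and 27.3% down. PAU9 (0.62, SE 0.14) and PAU18 (0.35, SE 0.11) rose, and PAU3 (-0.75, SE 0.19), TIR1 and PAU17 (-0.38, SE 0.10) fell. The change differed between strains in 4 members, PAU2, PAU8, PAU11 and PAU12, with adjusted p between 0.035 and 0.0467, where 1.66% of all genes did. PAU2 in K9 went from 1.86 and 1.68 at 15 min to -0.14 and 0.20 at 120 min. PAU11 in K9 went from 1.90 and 1.61 to -0.09 and 0.28, while in M22 it went from -0.59 and -0.51 to -0.04 and -0.03. At 120 min K9 and M22 therefore lay close together for PAU11. The F test over strains at 120 min called neither gene (adjusted p = 0.302 for PAU2 and 0.610 for PAU11).

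The third comparison set each of 4 strains against DBY8268 at 25C, before any heat. TIR3 was higher than in DBY8268 in K9, M22 and YPS163, TIR1 was higher in M22 and RM11-1a, and PAU21 was higher in M22. Of 25 tested members limma called 6 for M22 (background 23.2%), 4 for RM11-1a (14.4%), 1 for K9 (13.9%) and 1 for YPS163 (20.7%), so each share was near or below that of all 5306 genes. TIR3 measured 1.13 and 0.60 in K9, 1.19 and 1.61 in M22, 0.36 and 0.09 in RM11-1a, and 1.34 and 1.39 in YPS163. All 8 values lay above 0, and those of RM11-1a were the lowest. The differences were 0.87 in K9 (SE 0.19, adjusted p = 0.0249), 1.40 in M22 (SE 0.19, adjusted p = 0.00303) and 1.37 in YPS163 (SE 0.19, adjusted p = 0.00319). The call in K9 was lost without either K9 array (0.57 and 1.16), and that in YPS163 without replicate 2 (1.28, adjusted p = 0.0588). TIR1 measured 1.67 and 1.23 in RM11-1a and 0.77 and 1.03 in M22, above the 0.11 and 0.39 of K9, while YPS163 gave 0.55 and -0.60. The difference was 1.45 in RM11-1a (SE 0.26, adjusted p = 0.0105) and 0.90 in M22 (SE 0.26, adjusted p = 0.0448).

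PAU21 was above 0 on all 8 arrays at 25C. It measured 5.16 and 2.24 in M22, 1.26 and 3.31 in RM11-1a, 2.46 and 0.35 in K9, and 0.21 and 0.54 in YPS163. Replicates differed by more than 2 in M22, RM11-1a and K9, and the call in M22 (3.70, SE 0.75, adjusted p = 0.0141) was lost without replicate 1 (2.20, adjusted p = 0.208). PAU16 measured -4.29 and -0.68 in M22 and between -0.64 and 0.24 in the other 3 strains. Its call in M22 (-2.49, SE 0.55, adjusted p = 0.0197) was lost without replicate 1 (-0.84). In RM11-1a PAU2 was lower, at -2.29 and -0.74 (-1.52, SE 0.24, adjusted p = 0.0104), and PAU5 was higher, at 1.20 and 1.09 (1.15, SE 0.17, adjusted p = 0.00706). The other strains lay between -0.52 and 0.26 for PAU2 and between -0.29 and 0.73 for PAU5. PAU14, which had no value in the heat courses of DBY8268, was below 0 on all 8 arrays and passed the test in RM11-1a (-0.67, SE 0.14, adjusted p = 0.0180). PAU4 was higher in M22, at 0.51 and 0.65 (0.58, SE 0.16), and PAU10 was lower there, at -1.09 and 0.03 (-0.53, SE 0.15, adjusted p = 0.0430). DAN4 was above 0 on all 7 arrays with a value, from 0.05 to 1.15, and passed no test. The calls of TIR1, PAU5 and PAU14 in RM11-1a were lost without either array of that strain, and that of PAU2 without replicate 1 (-0.94, adjusted p = 0.116).

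The PAU genes shared an offset between the arrays of a strain at 25C. Their values were higher on replicate 2 for 20 of 22 PAU genes in YPS163, 19 of 22 in RM11-1a, 12 of 14 in M22 and 15 of 22 in K9. Over all genes this share was 46.8%, 50.4%, 61.7% and 44.9%. The median offset was 0.455, 0.315, 0.71 and 0.285 in the same order of strains. Replicate 2 carried the dyes the other way round, and limma called the dye term in 0 of 25 members and in 0 of all 5306 genes. At an unadjusted p under 0.05 it counted 10 of the 25 members and 12.3% of all genes. The F test among the 4 strains called 0 of 25 members at 25C (background 10.8%), while 8 members and 29.3% of all genes had an unadjusted p under 0.05.

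**Figure D5:**
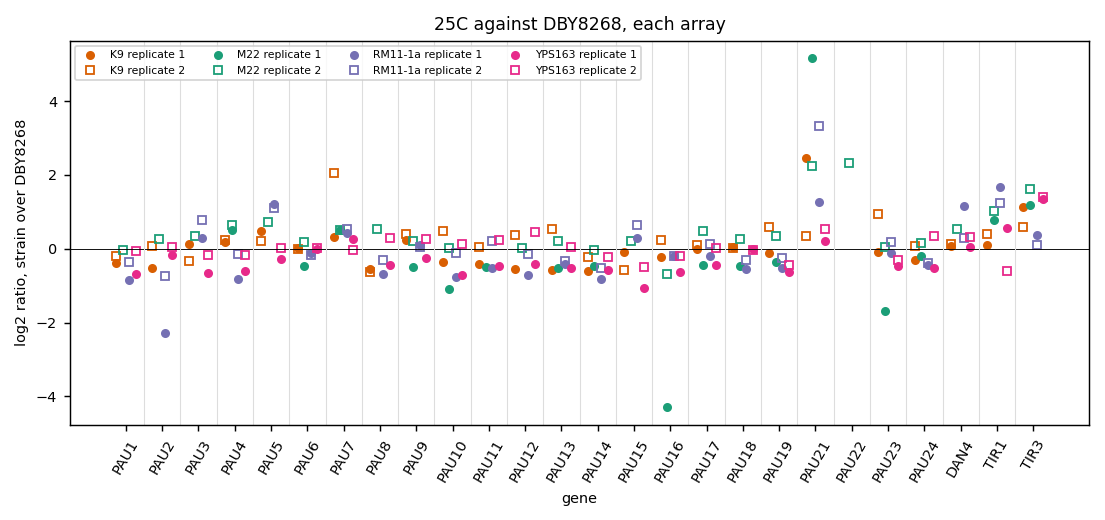
Log2 ratio of K9, M22, RM11-1a and YPS163 to DBY8268 at 25C for each member with a value, on each of 8 arrays. PAU21 lies above 0 on every array and reaches 5.16 in M22, PAU16 reaches -4.29 on 1 array of M22, and TIR3 is at 0.60 or above on the 6 arrays of K9, M22 and YPS163 and lower in RM11-1a.

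The genes of a few lists were set beside the family. Among 8 regulators of these genes, 7 were tested, of which 4 rose and 1 fell at 5 min, with a median of 0.78. Of all tested genes 31.1% rose and 36.2% fell at that time. UPC2, the sterol-responsive activator of the DAN and TIR genes, rose by 1.10 (SE 0.10), its paralog ECM22 by 0.78 (SE 0.10), the repressor MOT3 by 0.79 (SE 0.10) and the heme-responsive regulator HAP1 by 0.80 (SE 0.12), while the corepressor TUP1 fell by 0.41 (SE 0.08). At 15 min 1 regulator rose and 3 fell, with MOT3 at 0.66 and UPC2 at -0.19, the latter short of the threshold. Of all tested genes 38.1% rose and 39.9% fell at 15 min. Of 10 listed hypoxic and sterol genes 7 were tested: ANB1, HEM13, CYC7, AAC3, OLE1, ERG11 and HMG2. At 15 min 6 of them fell and 1 rose, with a median of -0.98. OLE1, the fatty acid desaturase, was at -2.74 (SE 0.15) and HEM13, an enzyme of heme synthesis, at -1.34 (SE 0.08), while CYC7, the hypoxic isoform of cytochrome c, was at 2.00 (SE 0.13). Of 10 other cell wall mannoproteins 6 rose and 3 fell at 15 min, with a median of 0.95. SPI1, a cell wall protein of stressed cells, was at 3.23 (SE 0.21) and CWP1 at 2.42 (SE 0.13), and CIS3 was at -1.28 (SE 0.07).

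The COS genes, another multicopy family near chromosome ends, had 5 tested members. All 5 rose at 5 min, with a median of 0.85, and at 15 min, with a median of 0.50. Of all tested genes 31.1% rose at 5 min and 38.1% at 15 min. COS2 was at 0.71 (SE 0.09) and COS3 at 0.62 (SE 0.08) at 15 min. The strains differed at 15 min in 1 of these COS genes, COS5 (adjusted p = 0.00267), where 25.4% of all genes were called. At 25C 7 of 9 COS genes were higher in K9 than in DBY8268, and COS12 was lower (-3.25, SE 0.32). Of all genes 7.86% were higher and 6.05% lower there. COS1 was at 1.38 (SE 0.26) and COS5 at 1.35 (SE 0.26). No PAU gene was called in K9 at 25C.

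Over the 60 time-course arrays the 91 pairs of tested PAU genes had Pearson correlations from -0.423 to 0.907, with a median of 0.432. The highest was that of PAU2 with PAU11. PAU2 had a median of 0.686 to the other 13 PAU genes, PAU8 of 0.61, and PAU12, PAU13 and PAU24 of 0.601, while PAU21 had 0.05 and PAU9 -0.206. The points share arrays, references and, for near-identical copies, transcripts. TIR3 had correlations of -0.12 with TIR1 and -0.148 with TIR2. A median profile of the 17 tested members, PAU and TIR genes together, was taken over the 30 groups of strain and time. Among 4343 other genes the mean profile most like it belonged to YDL085C-A (r = 0.821), followed by MBR1 (0.59), YTA6 (0.576), NDE1 (0.576) and TPO1 (0.574).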

How the data were processed

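The deposited values are log2 ratios of test over reference RNA on 68 arrays of 2 colours, as far as the values show; per the labels' protocols RNA came from hot phenol extraction and was labelled with cyanine dyes through amino-allyl groups. The base of the logarithm, the normalization and the centring are not given in the sources used here, and ratios were turned so that test RNA is above reference RNA. Arrays were grouped by the labels. Of 6297 rows 5832 matched a gene of R64 and 465 kept the systematic name. Members and lists were chosen with earlier results of these data known.

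Each gene was fitted by least squares in R 4.3.3 and limma 3.58.1, with Benjamini-Hochberg adjustment over all genes of a comparison and a threshold of 0.05. Time courses had 30 group means and a dye term over 4360 genes; changes from 15 to 120 min were fitted within series (4698 genes), and 25C arrays with 4 strain means and a dye term (5306 genes with at least 6 values). The methods were tested on simulated data with independent noise on each array. That test leaves out the correlation between arrays of one series and cannot show the error rate under it. No label states separate cultures for the series, and p-values therefore reflect the spread between arrays, which may be technical. Genes named in the text were the 3 highest, the 3 lowest and the 3 with the smallest F test p at 15 min and, at 25C, the called members of each strain; others were named after their values were seen. No sequence was analysed here. Alternatives were centring, no dye term, no filter, blocks, code prefix, and left-out arrays.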

Additional observations from a re-analysis of the deposited data

Results flagged for a closer look

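Differences between strains that passed the F test over strains (limma, Benjamini-Hochberg adjusted p) are given here with no explanation. At 15 min these were PAU2 (5.016e-06), PAU11 (2.197e-05), PAU13 (7.92e-05), PAU21 (0.000278), TIR3 (0.0002819), PAU12 (0.0003889), PAU18 (0.001689), PAU8 (0.001693), PAU24 (0.005159) and PAU4 (0.04016). PAU2 also differed at 5 min (0.01157). At 30 min PAU8 (0.006168), TIR2 (0.006978), PAU2 (0.02852), PAU21 (0.03412) and PAU12 (0.03707) differed. TIR3 differed at 45 min (0.04696), 60 min (0.003152) and 120 min (0.0004511), and PAU21 at 120 min (0.006526). The change from 15 to 120 min differed between strains for PAU12 (0.03503), PAU8 (0.0389), PAU11 (0.04102) and PAU2 (0.04667).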

How the results depend on the processing

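Under the alternatives run, no named gene changed sign, though some calls of named genes were lost. The named genes called in the mean over strains at 15 min, all but PAU13, kept that call wherever they could be tested. Counts of members have no sign and were compared by size only. Counts of members called moved by more than 1.5 times in these cases. With each array centred on its median the mean over strains gave 2 at 45 min, 3 at 60 min and 6 at 120 min, the strain test gave 0 at 45 min and 2 at 60 min, and YPS163 against the other strains gave 1. Without the dye term the mean gave 3 at 60 min, the strain test 0 at 45 min, and YPS163 against the others 1. With all genes that have a value the strain test gave 0 at 45 min and RM11-1a gave 11 of 27 at 15 min. With series as a random replicate block the strain test gave 2 at 60 min, and the block moved no other count by over 1.5 times. Deviations of arrays of one series, most of which name the same 25C reference, had median correlations of 0.281 to 0.466 by strain, with lowest values of 0.049 in DBY8268 and 0.09 in M22, and the block used a correlation of 0.3395. With the code prefix as a covariate the mean gave 1 at 60 min, the strain test 0 at 45 min, K9 gave 8, RM11-1a 0 and YPS163 2 at 15 min, and against the other strains DBY8268 gave 0, K9 3 and YPS163 0. Without the 3 arrays of another 25C reference the strain test gave 2 at 30 min and 0 at 45 min. Without the technical repeat the mean gave 1 at 60 min and the strain test 0 at 45 min and 2 at 60 min. Without the replicate block the change from 15 to 120 min gave 3 of 17, and at 25C, with no dye term, YPS163 gave 2. The cause of these moves was not tested.

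Leaving out 1 series left 6 to 16 of the 17 members with enough values, so fewer members could be called. Some counts were still higher than in the main fit, such as up to 6 against 4 for the mean at 45 min. The cause of the changes was not tested. The mean then gave 5 to 12 at 5 min, 4 to 12 at 15 min, 2 to 13 at 30 min, 1 to 6 at 45 min, 0 to 5 at 60 min and 3 to 11 at 120 min. The strain test gave 0 to 2, 3 to 11, 0 to 6, 0 to 1, 0 to 2 and 0 to 2 at the same times. Own responses at 15 min gave 2 to 6 (DBY8268), 5 to 13 (K9, and 14 without the technical repeat), 3 to 10 (M22), 2 to 8 (RM11-1a) and 1 to 3 (YPS163). Against the other strains the counts were 0 to 2, 1 to 7, 0 to 11, 0 to 2 and 0 to 2. The change from 15 to 120 min gave 3 to 6. At 25C the counts were 1 to 5 for M22 and RM11-1a and 0 to 2 for K9 and YPS163, and PAU10 in M22 lost its call under most alternatives. Array number and shared hybridisation of PAU copies limit these values.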
